A study of Mus musculus with 8 samples.

Results

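The genes described are those of the VEGF and angiopoietin systems: the ligands Vegfa, Vegfb and Vegfc, their receptors Flt1 and Kdr, the coreceptors Nrp1 and Nrp2, the angiopoietins Angpt1 and Angpt2, and the angiopoietin receptor Tek. These 10 genes were chosen by symbol, and all 10 were found among the 51886 gene symbols of the table. The samples were granulosa cells, the somatic cells that surround the oocyte, of the mouse strain PGR-A KO, with 4 PGR-A KO and 4 WT libraries. PGR-A is an isoform of the progesterone receptor. The labels give the genotype only as KO or WT and do not say how the allele was made. All mice of both genotypes were 21 to 27 days old and received 5 IU eCG, which stimulates follicle growth, then 5 IU hCG, which triggers ovulation, 46 h later. Cells were collected 8 h after hCG, and each library pooled the cells of 2 to 3 mice, so replicates are pools rather than single animals.

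The granulosa layer has no blood vessels until ovulation, when vessels of the surrounding theca grow across the basement membrane. VEGF-A, secreted by granulosa cells, drives the growth and permeability of these vessels through receptors on endothelial cells. Angiopoietin 1 stabilises vessels by activating the receptor TIE2, encoded by Tek, while angiopoietin 2 can block that signal and loosen vessels so that they can grow or regress.

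The promoters of Vegfa, Vegfc and Kdr are shown because the levels of these 3 genes ran high and low in many of the same libraries (their values by library follow). Each sequence is the 250 bases before the start of the gene, 5′ to 3′ on the gene's own strand, from RefSeq on GRCm38.p6, the assembly also called mm10. Capitals mark GC boxes (GGGCGG) and the core of the hypoxia response element (ACGTG or GCGTG), searched on both strands. None of the marked matches overlap one another in these 3 sequences.
Vegfa (chr17:46032378-46032627, minus strand): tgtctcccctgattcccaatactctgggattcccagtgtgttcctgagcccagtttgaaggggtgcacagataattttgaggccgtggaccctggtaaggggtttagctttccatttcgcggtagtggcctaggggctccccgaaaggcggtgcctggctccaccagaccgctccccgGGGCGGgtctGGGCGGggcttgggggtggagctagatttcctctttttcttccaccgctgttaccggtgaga
Vegfc (chr8:54077282-54077531, plus strand): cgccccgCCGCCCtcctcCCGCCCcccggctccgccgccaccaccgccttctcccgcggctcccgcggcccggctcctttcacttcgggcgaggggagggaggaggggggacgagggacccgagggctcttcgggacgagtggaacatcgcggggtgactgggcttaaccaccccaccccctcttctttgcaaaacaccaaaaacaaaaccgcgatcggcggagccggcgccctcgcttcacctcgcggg
Kdr (chr5:75978456-75978705, minus strand): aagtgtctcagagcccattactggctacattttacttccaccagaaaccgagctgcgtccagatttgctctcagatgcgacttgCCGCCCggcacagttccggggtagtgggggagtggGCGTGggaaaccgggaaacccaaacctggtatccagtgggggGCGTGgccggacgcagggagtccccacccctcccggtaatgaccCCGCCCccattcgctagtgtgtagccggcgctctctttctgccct
The Vegfa window held 2 GC boxes, at 72 and 62 bases before the start, and the Vegfc window held 2, at 243 and 232 bases. RefSeq has a second Vegfa window (46025164 to 46025413), not printed, which held 1 GC box and 2 hypoxia response cores. That window lies inside the annotated Vegfa gene, not before its first start. The Kdr window held 2 GC boxes, at 166 and 45 bases, and 2 hypoxia response cores, at 131 and 89 bases. Flt1 ran high and low in many of the same libraries as these 3 genes too. The Flt1 window, not printed, held 3 GC boxes and 1 hypoxia response core. A link between such matches and the levels by library was not tested. A GC box was present in 8 of the 9 windows found for 8 of the members (Vegfa has a pair, the second inside the gene), against 32.7% of 32851 promoter windows of the same length. The Nrp1 window (128358823 to 128359072) also lies inside its annotated gene, which starts at 128358604. The Nrp2 window (62703067 to 62703316) runs past the annotated start at 62703285. The hypoxia core was present in 6 of the 9, against 38.6%. The half-site of steroid receptors (AGAACA) was present in 1 of the 9, that of Tek, against 16.1%. Of the 9 windows, 8 were richer in G and C than the median window of 52.4%, with 61.6% for Kdr and 71.6% for Vegfc, and that of Tek was not (51.2%). The part of base composition in these counts was not tested. A match of letters is not a binding site.

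Granulosa markers were high in both genotypes: all 10 markers were found and, led by the inhibin gene Inha, summed to 4678 to 6522 TPM in PGR-A KO libraries and to 5649 to 7828 TPM in WT libraries. TPM, a share of transcripts scaled to a fixed total, is corrected for transcript length, so levels of different genes can be set side by side. The deposited TPM keep no sequencing depth, and the depth of each library is unknown. Over the 14472 genes that reached 1 TPM in 4 or more libraries, limma on log2(TPM + 1) called 2 genes at an adjusted p under 0.05 (0.0138%), both lower in the knockout. The libraries did not order by genotype: the first principal component, with 34.9% of the variance, placed 3 knockout libraries (replicates 1, 2 and 4) with WT replicate 1, at 10.6 to 21.2, and the knockout replicate 3 with the other 3 WT libraries, at -25.8 to -3.55. For members whose difference moved by over 1.5 times once WT replicate 1 and knockout replicate 3 were dropped, that value is given as well. These 2 libraries were chosen by their values, which lie with the other genotype on this component, though not in every gene. The p-values from the remaining 6 libraries, in which 8.01% of genes tested were called, therefore do not measure an effect of genotype.

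No gene of the VEGF and angiopoietin systems passed the threshold between PGR-A KO and WT. Angpt2 had the largest difference in mean, lower in the knockout, and Vegfa, the most abundant member, had nearly equal means. Of the 10 members, 7 passed the filter on low values, each with at least 1 TPM in all 8 libraries, and 3 (Flt1, Angpt1 and Tek) did not. Of the 7, 0 were called by limma, against 0.0138% of all genes tested, and adjusted p ran from 0.783 to 0.987. At an unadjusted p under 0.05 there was 1 of 7, Angpt2, against 6.31% of all genes tested. Means on the log2 scale were higher in the knockout for 2 and lower for 5, where 42.6% of all genes tested were higher. The median difference was -0.078 over the 7 and -0.023 over all genes tested. With TMM factors or quantile normalization the share of all genes with higher means was 53.7% or 54.4% and their median 0.013 or 0.014, while the members split into 3 higher and 4 lower with a median of -0.039, or 2 higher and 5 lower with a median of -0.049. The ranges of the genotypes overlapped in all 10 members, while 3.42% of all genes tested had ranges that did not.

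**Figure D1:**
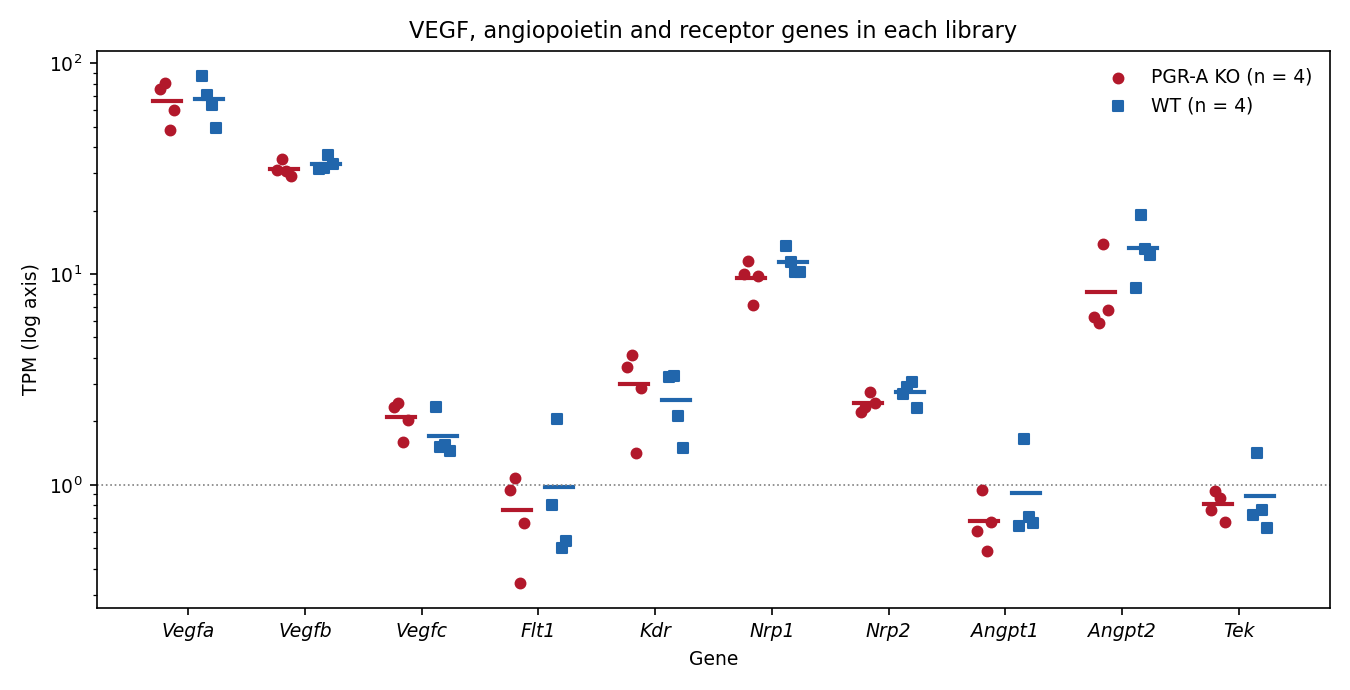
TPM (log axis) of the 10 genes in each of 4 PGR-A KO libraries (red circles, left) and 4 WT libraries (blue squares, right); bars are group means and the dotted line marks 1 TPM. Vegfa and Vegfb stand highest, Flt1, Angpt1 and Tek lie mostly under 1 TPM, and the genotypes overlap in every gene.

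Vegfa led the order of levels, with a mean of 66.9 TPM over the 8 libraries, followed by Vegfb at 32.5 TPM. Vegfa exceeded Vegfb in 8 of 8 libraries, and Vegfb exceeded Angpt2 in 8 of 8. Angpt2 (10.7 TPM) and Nrp1 (10.5 TPM) did not separate, Angpt2 being the higher in 4 of 8 libraries. Nrp1 exceeded Kdr in 8 of 8. Kdr (2.77 TPM), Nrp2 (2.59 TPM) and Vegfc (1.91 TPM) overlapped, with Kdr above Nrp2 in 5 of 8 and Nrp2 above Vegfc in 6 of 8. Vegfc exceeded Flt1 in 7 of 8 libraries. Flt1 (0.866 TPM), Tek (0.845 TPM) and Angpt1 (0.792 TPM) were not separable, with Flt1 above Tek in 4 of 8 and Tek above Angpt1 in 5 of 8.

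Vegfa (ENSMUSG00000023951.17, chromosome 17, 46016993 to 46032369, minus strand, mm10), the principal driver of vessel growth, stood at 75.8, 80.8, 48.4 and 59.8 TPM in PGR-A KO replicates 1 to 4, against 86.9, 70.5, 63.7 and 49.1 TPM in WT replicates 1 to 4. The highest library was WT and the lowest was knockout, and the ranges lay almost on each other. Means were 66.2 ± 14.9 TPM in PGR-A KO and 67.5 ± 15.7 TPM in WT (SD, n = 4 each). The difference on the log2 scale was -0.03 (SE 0.20, limma adjusted p = 0.987), with a 95% interval, not adjusted for the number of genes, from -0.48 to 0.42. Its sign turned to higher in the knockout with TMM factors (0.012), without knockout replicate 3 (0.11) or 4 (0.012), without WT replicate 1 (0.10) or 2 (0.0029), and in the 6 libraries other than knockout replicate 3 and WT replicate 1 (0.24, limma adjusted p = 0.392). The gene has 13 annotated transcripts in GENCODE M21, 8 of them protein coding, whose products differ in how tightly they bind the matrix, and a gene-level value cannot separate them.

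Vegfb (chromosome 19, 6982473 to 6987651, minus strand), a ligand of Flt1 with little effect on vessel growth of its own, varied least. Vegfb held 31.2, 35.2, 30.9 and 29.1 TPM in PGR-A KO replicates 1 to 4, against 31.5, 31.9, 36.8 and 33.4 TPM in WT replicates 1 to 4. All 8 libraries lay within a 1.27-fold range, where Vegfa spanned a 1.79-fold range. The log2 difference of Vegfb was -0.078 (SE 0.082, limma adjusted p = 0.908; 95% interval -0.26 to 0.11). Its spread within genotypes was larger than that of 21.5% of genes tested, and that of Vegfa larger than that of 85.8%.

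Vegfc (chromosome 8, 54077606 to 54187096, plus strand), best known as the growth factor of lymphatic vessels, was the ligand with the higher mean in the knockout. Vegfc stood at 2.34, 2.46, 1.60 and 2.02 TPM in PGR-A KO replicates 1 to 4, against 2.34, 1.51, 1.54 and 1.44 TPM in WT replicates 1 to 4. WT replicate 1 and knockout replicates 1, 2 and 4 were high, and the other 4 libraries lay between 1.44 and 1.60 TPM. Means were 2.11 ± 0.383 TPM in PGR-A KO and 1.71 ± 0.422 TPM in WT (SD, n = 4 each), a log2 difference of 0.20 (SE 0.14, limma adjusted p = 0.847; 95% interval -0.13 to 0.53). In the 6 libraries other than knockout replicate 3 and WT replicate 1, the difference was 0.39 and the limma adjusted p 0.084, with the limit given above for that choice of libraries.

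Among the receptors, Kdr (chromosome 5, 75932827 to 75978458, minus strand), which encodes VEGFR2, the main signalling receptor of VEGF-A, stood at 3.61, 4.12, 1.41 and 2.89 TPM in PGR-A KO replicates 1 to 4, against 3.25, 3.27, 2.13 and 1.49 TPM in WT replicates 1 to 4. Kdr was lowest in PGR-A KO replicate 3 and WT replicate 4 and highest in PGR-A KO replicate 2, and its range of 2.92-fold crossed both genotypes. Means were 3.01 ± 1.18 TPM in PGR-A KO and 2.54 ± 0.879 TPM in WT (SD, n = 4 each), a log2 difference of 0.16 (SE 0.26, limma adjusted p = 0.945; 95% interval -0.43 to 0.75). It was 0.39 without PGR-A KO replicate 3, 0.0037 without WT replicate 4, and 0.49 (limma adjusted p = 0.198) in the 6 libraries other than knockout replicate 3 and WT replicate 1. The spread of Kdr within genotypes exceeded that of 93.9% of genes tested. Flt1 (chromosome 5, 147561604 to 147726011, minus strand), which encodes VEGFR1, a receptor that also exists as a soluble trap for VEGF-A, was under the filter. Flt1 had 0.943, 1.08, 0.344 and 0.660 TPM in PGR-A KO replicates 1 to 4, against 0.802, 2.06, 0.504 and 0.541 TPM in WT replicates 1 to 4. WT replicate 2 was the highest library, and the genotypes overlapped (exact 2-sided permutation p = 0.743). Soluble and membrane forms of Flt1 share 1 gene-level value here.

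The neuropilins are coreceptors of VEGF and of class 3 semaphorins, Nrp1 in blood vessels mostly and Nrp2 in veins and lymphatics. Nrp1 (chromosome 8, 128358604 to 128503363, plus strand) held 9.99, 11.6, 7.12 and 9.80 TPM in PGR-A KO replicates 1 to 4, against 13.6, 11.4, 10.3 and 10.2 TPM in WT replicates 1 to 4. Only PGR-A KO replicate 2 lay within the WT range, and the other 3 knockout libraries lay under all 4 WT libraries. The log2 difference of Nrp1 was -0.23 (SE 0.15, limma adjusted p = 0.827; 95% interval -0.56 to 0.098). It was -0.025 when knockout replicate 3, the lowest library, and WT replicate 1, the highest, were left out. Nrp2 (chromosome 1, 62703285 to 62818695, plus strand) ran from 2.21 to 2.76 TPM in PGR-A KO libraries and from 2.32 to 3.07 TPM in WT libraries, with a log2 difference of -0.12 (SE 0.11, limma adjusted p = 0.883; 95% interval -0.37 to 0.12).

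Angpt2 (ENSMUSG00000031465.6, chromosome 8, 18690263 to 18741562, minus strand), the vessel-loosening angiopoietin, had the largest difference among the members and did not pass. Angpt2 stood at 6.24, 5.85, 13.9 and 6.78 TPM in PGR-A KO replicates 1 to 4, against 8.56, 19.0, 13.1 and 12.3 TPM in WT replicates 1 to 4. PGR-A KO replicates 1, 2 and 4 lay under every WT library, while PGR-A KO replicate 3 lay above 3 of the 4 WT libraries. Means were 8.19 ± 3.82 TPM in PGR-A KO and 13.3 ± 4.31 TPM in WT (SD, n = 4 each), a ratio of 0.618. The log2 difference was -0.66 (SE 0.28; 95% interval -1.30 to -0.023), with an unadjusted limma p of 0.0436, an adjusted p of 0.783, and an exact 2-sided permutation p of 0.114 where the smallest possible is 0.0286. Its spread within genotypes exceeded that of 95.7% of genes tested. Without PGR-A KO replicate 3 alone the difference was -0.92 (limma adjusted p = 0.288), and without WT replicate 1 alone -0.84 (limma adjusted p = 0.276).

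With knockout replicate 3 and WT replicate 1 both left out, Angpt2 was the 1 member called, at a log2 difference of -1.10 (SE 0.16, limma adjusted p = 0.0118). In those 6 libraries 8.01% of 14114 genes tested were called and 4.17% were called lower in the knockout. The choice of these 2 libraries was made knowing that they lie with the other genotype on the first principal component. This call therefore does not measure an effect of genotype.

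Angpt1 and Tek, the stabilising ligand and the receptor of both angiopoietins, stood near the 1 TPM of the filter. Angpt1 (chromosome 15, 42424723 to 42676977, minus strand) had 0.604, 0.941, 0.484 and 0.665 TPM in PGR-A KO replicates 1 to 4, against 0.636, 1.64, 0.704 and 0.662 TPM in WT replicates 1 to 4. Tek (chromosome 4, 94739289 to 94874976, plus strand) had 0.760, 0.939, 0.865 and 0.666 TPM in PGR-A KO replicates 1 to 4, against 0.723, 1.42, 0.761 and 0.626 TPM in WT replicates 1 to 4. WT replicate 2 was the highest library for both genes and the 1 library above 1 TPM. Exact 2-sided permutation p were 0.486 for Angpt1 and 0.886 for Tek. An exon of Angpt1 shares up to 653 bases with the antisense gene Gm17473, which was listed at 0 to 0.027 TPM.

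**Figure D2:**
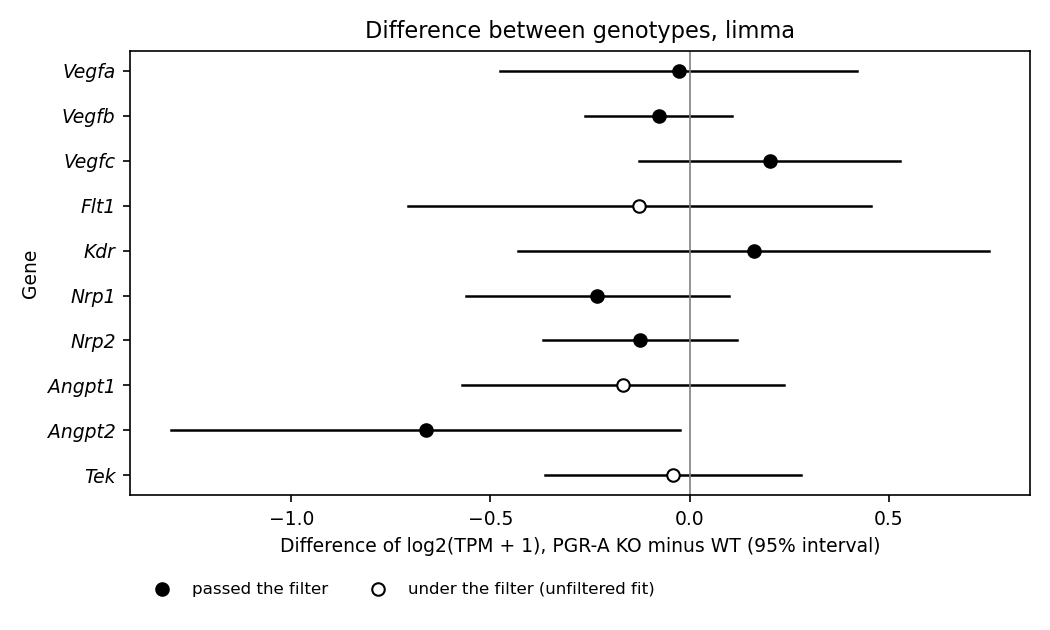
Difference of log2(TPM + 1), PGR-A KO minus WT, of each gene with its 95% interval from limma, 4 libraries a genotype; filled points passed the filter and open points come from the unfiltered fit. Angpt2 lies farthest from 0 at -0.66 (limma adjusted p = 0.783), and the intervals of the other 9 genes hold 0. The intervals are not adjusted for the number of genes. In the unfiltered fit the interval of Angpt2 held 0 as well (-1.36 to 0.036).

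Ratios of related members within a library do not depend on how that library was scaled, and 4 were compared. The ratio of Angpt2 to Angpt1 was 10.3, 6.21, 28.7 and 10.2 in PGR-A KO replicates 1 to 4, against 13.5, 11.6, 18.7 and 18.6 in WT replicates 1 to 4. Angpt2 thus exceeded Angpt1 in every library, and PGR-A KO replicates held both the lowest and the highest ratio. The log2 ratio averaged 3.55 ± 0.928 in PGR-A KO and 3.93 ± 0.347 in WT (SD, n = 4 each; exact permutation p = 0.514, adjusted over 4 ratios 0.886). The difference of -0.38 was -0.81 without PGR-A KO replicate 3 (exact permutation p = 0.0571), -0.077 without PGR-A KO replicate 2, and -0.87 in the 6 libraries other than knockout replicate 3 and WT replicate 1 (exact permutation p = 0.1, the smallest possible). The ratio of Flt1 to Kdr lay between 0.228 and 0.262 in PGR-A KO libraries and between 0.236 and 0.628 in WT libraries, with WT replicate 2 the highest (exact permutation p = 0.314, adjusted 0.886). The difference in log2 ratio was -0.45, and -0.16 without WT replicate 2. The log2 ratios of Nrp2 to Nrp1 and of Vegfb to Vegfa differed between genotypes by 0.084 and -0.053 (exact permutation p = 0.8 and 0.886, both adjusted 0.886), and the sign of both turned when single libraries were left out.

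Levels also differed widely between libraries of the same genotype, and 6 of the 8 libraries fell into 2 sets of 3 in several members. WT replicate 1 and knockout replicates 1 and 2 held more Vegfa (75.8 to 86.9 TPM) than WT replicates 3 and 4 and knockout replicate 3 (48.4 to 63.7 TPM). The same 3 libraries held more Kdr (3.25 to 4.12 TPM, against 1.41 to 2.13 TPM), more Vegfc (2.34 to 2.46 TPM, against 1.44 to 1.60 TPM) and more Flt1 (0.802 to 1.08 TPM, against 0.344 to 0.541 TPM). Angpt2 lay at 5.85 to 8.56 TPM in them and at 12.3 to 13.9 TPM in the other 3. The remaining 2 libraries did not follow these sets. WT replicate 2 had the highest Angpt2 (19.0 TPM) and Flt1 (2.06 TPM) of all 8 libraries together with Kdr at 3.27 TPM and Vegfa at 70.5 TPM, and PGR-A KO replicate 4 had Angpt2 at 6.78 TPM with Vegfa at 59.8 TPM. The 4 libraries on the positive side of the first principal component were also the 4 lowest in Angpt2 and the 4 highest in Vegfc. These libraries were picked out by their values, so no test was made of this order. In Vegfb, Nrp1, Nrp2, Angpt1 and Tek the values of these 3 libraries and of the other 3 overlapped.

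**Figure D3:**
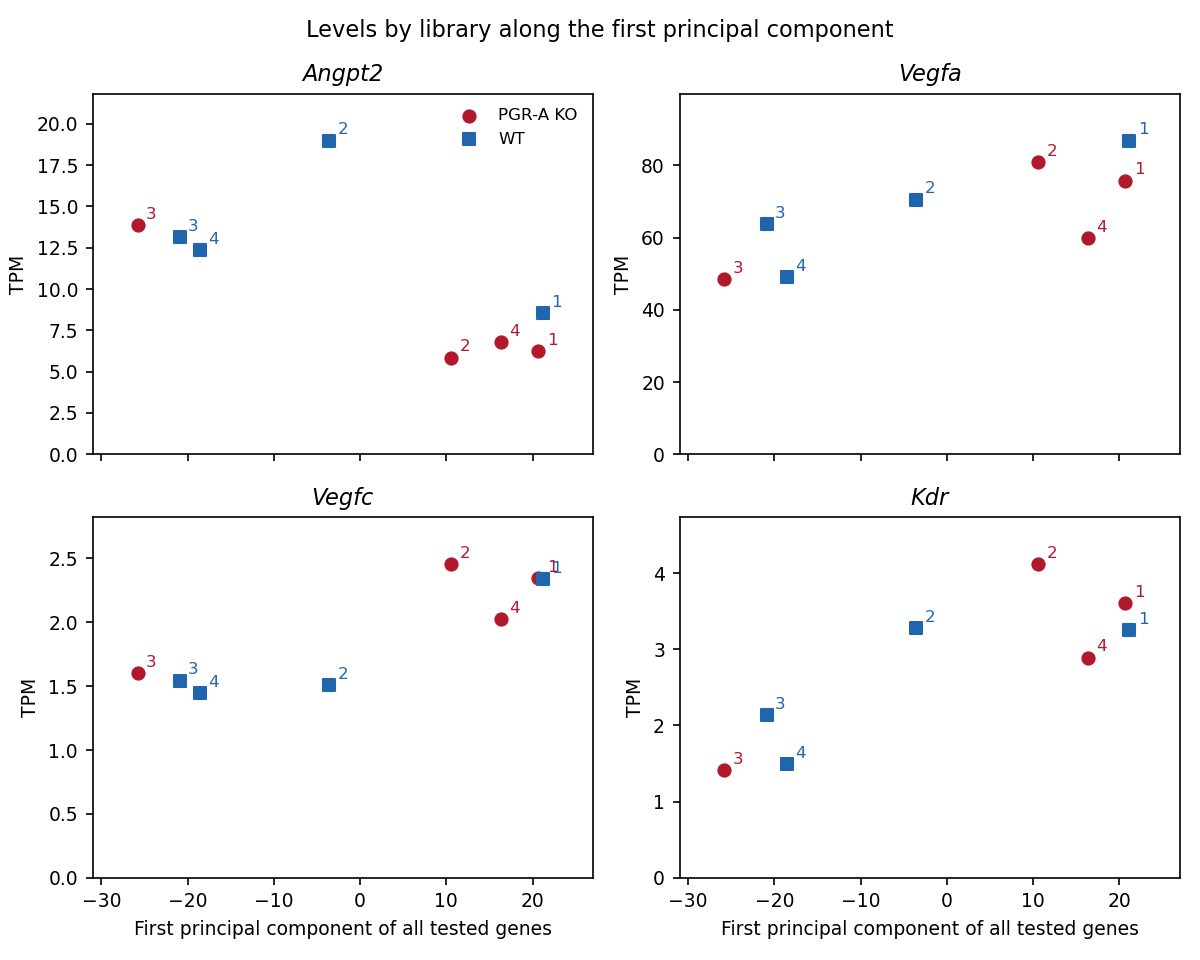
TPM of Angpt2, Vegfa, Vegfc and Kdr in each library (vertical axes) against its position on the first principal component of all genes tested (horizontal axes); red circles are PGR-A KO, blue squares WT, and digits are replicate numbers. Angpt2 is low and Vegfc high in knockout replicates 1, 2 and 4 and in WT replicate 1.

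Genes with the profile closest to a member were looked up for the 3 most abundant members, by the root mean square difference of centred log2(TPM + 1) over the 8 libraries among 10306 genes with a mean of at least 5 TPM. Closest to Angpt2 were Selenop, a selenium transport protein (0.110), Grb14, an adaptor that binds receptor tyrosine kinases (0.114), and Ccn2, a matrix-associated growth factor (0.124), set against the 0.532 by which Angpt2 itself varied about its mean. Grb14 stood at 313, 304, 585 and 383 TPM in PGR-A KO replicates 1 to 4, against 397, 996, 681 and 613 TPM in WT replicates 1 to 4, with the same 4 libraries low as for Angpt2. Closest to Vegfa, which varied by 0.290, were Cplane1 (0.076), Bmp1, a protease of procollagens (0.086), and Ttc39b (0.094). Closest to Vegfb, which varied by 0.0999, were Zbtb12 (0.022), the lysosomal protease gene Ctsz (0.023) and Jmjd8 (0.026). With 8 libraries and this many genes some profiles lie close to any given one, and these are descriptions.

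The receptors Kdr, Flt1 and Tek are known mainly from endothelial cells, and markers of blood endothelium were present at low levels. All 14 markers were found and none was listed at 0 in any library. Their summed level was 44.8, 49.9, 30.1 and 36.6 TPM in PGR-A KO replicates 1 to 4, against 54.8, 71.5, 39.7 and 38.3 TPM in WT replicates 1 to 4. Of the 10 markers tested 1 had a higher and 9 a lower mean in the knockout, with 0 called. The split stayed at 1 higher and 9 lower with TMM factors. It was 3 higher and 5 lower without WT replicate 2, and 2 higher and 6 lower in the 6 libraries, where fewer markers passed the filter. The most abundant was the endothelial cadherin gene Cdh5, at 10.7 ± 3.61 TPM in PGR-A KO and 16.6 ± 6.48 TPM in WT (SD, n = 4 each). WT replicate 2, highest for Flt1, Tek and Angpt1, was highest for these markers too, and PGR-A KO replicate 3, lowest for Kdr and Flt1, was lowest. Not every receptor followed the markers. Kdr was highest in PGR-A KO replicate 2 (4.12 TPM), and Tek in PGR-A KO replicate 3 (0.865 TPM) ranked 3 from the highest. Per 100 TPM of the summed markers, Kdr stood at 8.06, 8.25, 4.68 and 7.89 TPM in PGR-A KO replicates 1 to 4, against 5.94, 4.58, 5.38 and 3.89 TPM in WT replicates 1 to 4. On the same scale Flt1 stood at 1.14 to 2.16 TPM in PGR-A KO libraries and 1.27 to 2.87 TPM in WT libraries, and Tek at 1.70 to 2.87 TPM in PGR-A KO libraries and 1.32 to 1.99 TPM in WT libraries. The ranges of the genotypes overlapped in all 3 receptors. The part of endothelial cells in the levels of the receptors was not tested, and in bulk RNA fewer cells of a type and less RNA per cell cannot be told apart.

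**Figure D4:**
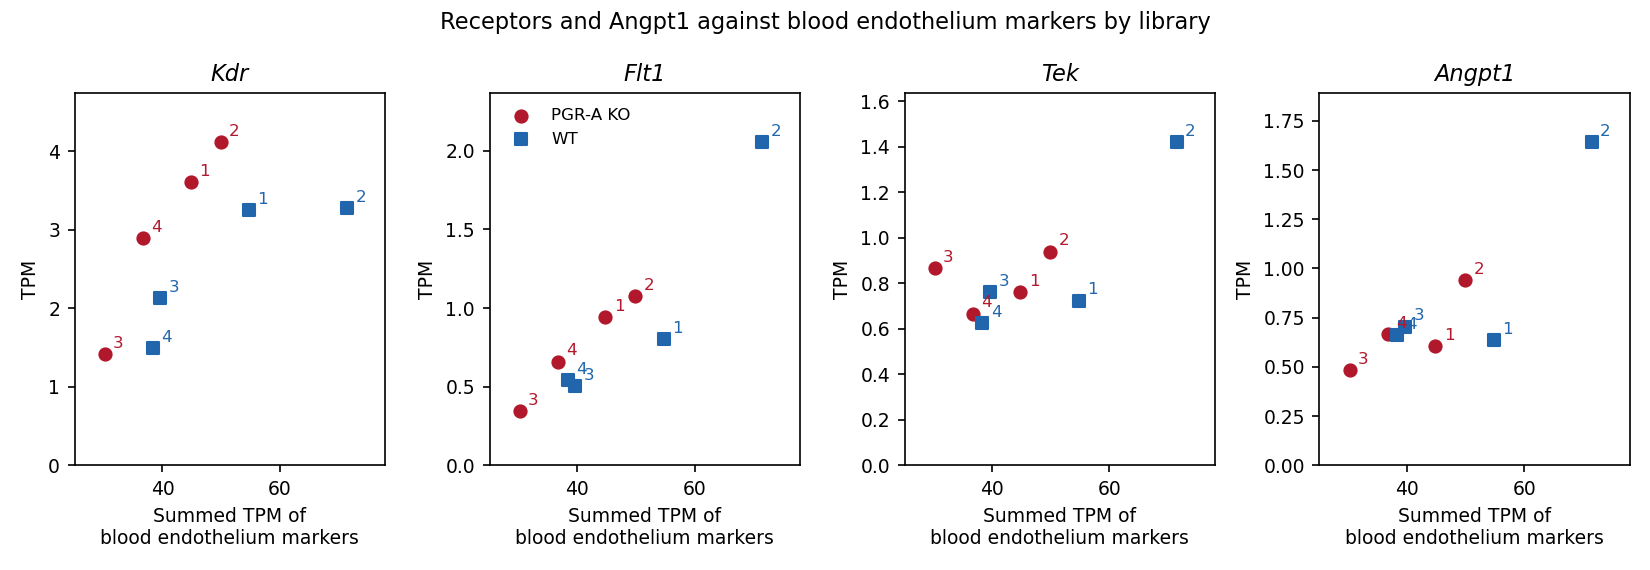
TPM of Kdr, Flt1, Tek and Angpt1 (vertical axes) against the summed TPM of 14 blood endothelium markers (horizontal axes) in each library; red circles are PGR-A KO, blue squares WT, and digits are replicate numbers. WT replicate 2, at 71.5 TPM of markers, is highest for Flt1, Tek and Angpt1, and Kdr is highest in PGR-A KO replicate 2.

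Markers of other cells also varied with single libraries. Theca and interstitial markers (7 of 7 found, led by Aldh1a1) summed to 118 to 126 TPM in PGR-A KO and to 113 to 273 TPM in WT, the highest in WT replicate 2, where Angpt1 was highest. Aldh1a1 alone held 212 TPM in WT replicate 2. The other 6 theca and interstitial markers summed to 44.3 to 57.3 TPM in PGR-A KO and to 47.3 to 60.9 TPM in WT. Pericyte and smooth muscle markers (8 of 8, led by Acta2) summed to 62.1 to 90.7 TPM in PGR-A KO and to 62.7 to 103 TPM in WT, and macrophage markers (9 of 9, led by Lyz2) to 54.8 to 116 TPM in PGR-A KO and 85.8 to 117 TPM in WT. In both, PGR-A KO replicate 3, highest of the knockout libraries for Angpt2, was the highest knockout library. The same library was the highest knockout library for the lymphatic (95.0 TPM), theca and interstitial (126 TPM), oocyte (1321 TPM) and erythroid (6318 TPM) sums too. For the granulosa, blood endothelium and surface epithelium sums PGR-A KO replicate 3 was the lowest knockout library. Acta2 held 54.9 TPM of the pericyte and smooth muscle sum there. The other 7 markers of that list summed to 32.7 to 35.8 TPM in PGR-A KO and to 33.1 to 44.6 TPM in WT. Among the knockout libraries, replicate 3 was highest for Acta2, Cspg4, Tagln and Myh11 and lowest for Pdgfrb, Rgs5 and Notch3. Lymphatic markers (5 of 5) summed to 62.5 to 95.0 TPM in PGR-A KO and to 176 to 310 TPM in WT. Of these Lyve1, the 1 marker called, was lower in the knockout, at 18.8 to 35.6 TPM in PGR-A KO and 127 to 267 TPM in WT. The other 4 lymphatic markers summed to 43.7 to 59.4 TPM in PGR-A KO and 43.2 to 51.8 TPM in WT, ranges that overlapped. That call was lost without WT replicate 2, where limma called 0 genes. Stromal markers (6 of 6, led by Col3a1) summed to 88.8 to 127 TPM in PGR-A KO and to 89.3 to 108 TPM in WT, and surface epithelium markers (6 of 6, led by Krt8) to 79.2 to 83.5 TPM in PGR-A KO and 74.8 to 109 TPM in WT. Oocyte markers (9 of 9, led by Gdf9) summed to 732 to 1321 TPM in PGR-A KO and to 533 to 1014 TPM in WT, and erythroid markers (5 of 5, led by Hbb-bs) to 3660 to 6318 TPM in PGR-A KO and 1732 to 11370 TPM in WT. No marker of any list was listed at 0 in a library, and the part of these cells in the members' levels was not tested.

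Of 73 further genes of the pathway in 6 lists, 65 were tested by limma, and 0 passed the threshold in either direction. Higher means in the knockout were found for 30 and lower means for 35, with a median log2 difference of -0.014 against -0.023 over all genes tested. These counts turned to 37 higher and 28 lower with TMM factors or quantile normalization, and to 38 higher and 26 lower in the 6 libraries. At an unadjusted p under 0.05 there were 0 higher and 4 lower, against 0.974% and 5.33% of all genes tested. In the rest of the VEGF and angiopoietin families 2 of 6 tested genes had higher and 4 lower means. Angptl4, a lipase inhibitor that also acts on vessels, was the most abundant at 128 ± 31.1 TPM in PGR-A KO and 117 ± 29.7 TPM in WT, and Angptl1 had 7.23 ± 1.5 TPM in PGR-A KO and 9.12 ± 1.90 TPM in WT (SD, n = 4 each). Flt4, the receptor of VEGF-C, was under the filter at 0.827 ± 0.214 TPM in PGR-A KO and 1.27 ± 0.790 TPM in WT (SD, n = 4 each).

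Among 12 genes that promote or restrain VEGF transcription or act on its mRNA, 5 had higher and 7 lower means in the knockout. The list mixes both roles, so these counts give no direction of VEGF induction. Epas1, which encodes the hypoxia factor HIF-2α, was the 1 gene of the 12 whose ranges did not overlap. It was also the 1 such gene among all 65 tested genes of the pathway lists, against 3.42% of all genes tested. It stood at 117, 98.1, 81.6 and 95.7 TPM in PGR-A KO replicates 1 to 4, against 205, 150, 134 and 124 TPM in WT replicates 1 to 4. All 4 knockout libraries of Epas1 lay under all 4 WT libraries, PGR-A KO replicate 3 and WT replicate 1 included, where 2.82% of all genes tested were lower without overlap. The log2 difference was -0.62 (SE 0.16; 95% interval -0.99 to -0.25), with an unadjusted limma p of 0.0041 and an adjusted p of 0.636. Hif1a, which encodes HIF-1α, had 187 ± 31.1 TPM in PGR-A KO and 168 ± 35.0 TPM in WT, and Egln3, a prolyl hydroxylase that marks HIF for decay, 14.0 ± 3.72 TPM in PGR-A KO and 11.2 ± 4.08 TPM in WT (SD, n = 4 each).

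Of 11 tested genes that release VEGF or restrain vessel growth, 6 had higher and 5 lower means. Thbs1, the angiogenesis inhibitor thrombospondin 1, had 369 ± 54.8 TPM in PGR-A KO and 490 ± 101 TPM in WT (SD, n = 4 each; limma adjusted p = 0.783), and the matrix protein gene Sparc 457 ± 75.8 TPM in PGR-A KO and 484 ± 93.6 TPM in WT. The urokinase gene Plau had 245 ± 44.3 TPM in PGR-A KO and 197 ± 30.3 TPM in WT (SD, n = 4 each). Of 13 semaphorins, plexins and Gipc1, 5 had higher and 8 lower means. The semaphorin Sema3a, a ligand of Nrp1, had 7.85 ± 2.73 TPM in PGR-A KO and 4.76 ± 1.68 TPM in WT (SD, n = 4 each; limma adjusted p = 0.791). Sema3b had 20.6 ± 1.72 TPM in PGR-A KO and 23.2 ± 2.99 TPM in WT, and the receptor Plxna1 72.8 ± 17.0 TPM in PGR-A KO and 73.6 ± 13.3 TPM in WT (SD, n = 4 each).

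Of 13 tested genes of signalling downstream of the receptors, 6 had higher and 7 lower means. Grb14 had 396 ± 131 TPM in PGR-A KO and 672 ± 248 TPM in WT (SD, n = 4 each; limma adjusted p = 0.783), and Vav2 had 10.9 ± 1.08 TPM in PGR-A KO and 9.28 ± 0.929 TPM in WT. Of 10 other tested angiogenic ligands 6 had higher and 4 lower means. The apelin gene Apln had 20.5 ± 5.63 TPM in PGR-A KO and 17.4 ± 4.39 TPM in WT, and the endothelin gene Edn2 15.8 ± 8.16 TPM in PGR-A KO and 10.2 ± 3.65 TPM in WT (SD, n = 4 each). Egfl7, a secreted factor of endothelial cells, had 9.04 ± 1.97 TPM in PGR-A KO and 10.8 ± 3.22 TPM in WT (SD, n = 4 each).

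**Figure D5:**
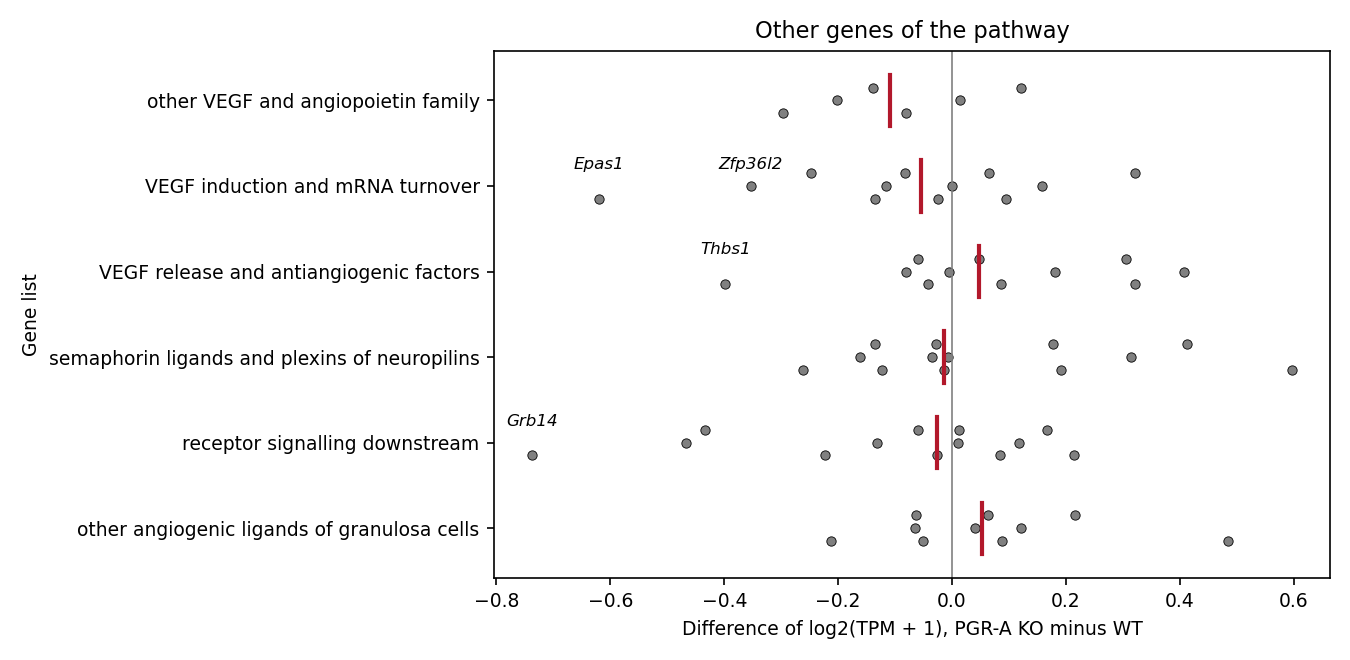
Difference of log2(TPM + 1), PGR-A KO minus WT, of each tested gene (points) in 6 lists of related genes; red bars are list medians and names mark genes with an unadjusted limma p under 0.05. The 4 named genes, Epas1, Zfp36l2, Thbs1 and Grb14, all have lower means in the knockout, and 0 of the 65 genes passed after adjustment.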

How the data were processed

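Poly-A RNA of granulosa cells was sequenced as stranded, paired-end libraries, per the labels' protocols. The authors deposited 1 table of TPM by gene symbol. FastQC, Salmon, limma, edgeR and mm10 are named in the submitters' processing notes, which give no versions and no roles. How transcripts were summed to genes, the annotation and the strand setting were not given in the sources used here. Salmon estimates can be split among isoforms and overlapping genes, and an exact 0 may be a failed estimate.

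TPM are not counts, so count models were not used. limma 3.58.1 (R 4.3.3, trended prior variance) compared PGR-A KO with WT on log2(TPM + 1), with no covariate, for genes reaching 1 TPM in 4 or more of 8 libraries. Fold changes on this scale understate the change of low genes. All tests are 2-sided, with Benjamini-Hochberg adjustment over 14472 genes at a threshold of 0.05. Single values were compared by an exact permutation test over 70 assignments. The p-values thus rest on differences among pooled libraries.

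The members and lists were chosen with earlier results of these data known, and lists are described by counts and medians only. Named were all 10 members, in each list the tested gene with the lowest p in each direction and the most abundant gene, and the closest profiles; Flt4, Zfp36l2, Lyve1 and Gm17473 were named outside this rule, after their values were seen. Gene positions are from GENCODE M21 on mm10. Replicate numbers were not taken to pair samples, since deviations of same-numbered libraries correlated at -0.290 to 0.393. The limma steps were tested on simulated data.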

Additional observations from a re-analysis of the deposited data

Results flagged for a closer look

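In 9 of 80 groups of 4 libraries 1 library lay far from the other 3, where chance flags about 1 in 20, or 4. Among the members, Angpt2 stood out in knockout replicate 3 (13.9 TPM, the other knockout libraries 5.85 to 6.78 TPM). Vegfc was high in WT replicate 1 (2.34 TPM, the other WT libraries 1.44 to 1.54 TPM). Angpt1 (1.64 TPM) and Tek (1.42 TPM) were high in WT replicate 2, as were Egfl7 (15.5 TPM) and the summed theca and interstitial markers (273 TPM). Of these 273 TPM, Aldh1a1 alone held 212 TPM. In PGR-A KO replicate 3, Hif1a was low (140 TPM, the other knockout libraries 199 to 207 TPM), and the summed markers of pericytes and smooth muscle (90.7 TPM) and of macrophages (116 TPM) were high. Acta2 alone held 54.9 TPM of the 90.7 TPM.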

How the results depend on the processing

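No member passed the threshold with TMM factors, quantile normalization, a pseudocount of 0.1 or 5, a minimum of 5 TPM, no filter, robust empirical Bayes, no intensity trend, a replicate block or any library left out (0 in each). In 6 libraries, leaving out knockout replicate 3 and WT replicate 1, 1 member passed (Angpt2, -1.10), and at an unadjusted p under 0.05 there was 1 (0 higher, 1 lower). Angpt2 kept a lower mean in all 18 alternatives, from -1.10 to -0.48, with adjusted limma p from 0.0118 to 1.00 and an unadjusted p under 0.05 in 9. Vegfa turned to 0.012 with TMM factors and 0.24 in 6 libraries, and ran from -0.17 to 0.11 with a library left out. The ratio of Nrp2 to Nrp1 turned to -0.21 in 6 libraries and ran from -0.12 to 0.20 with a library left out, and that of Vegfb to Vegfa from -0.21 to 0.091. Of all genes, 2 passed (0 higher, 2 lower), 1 with a pseudocount of 5 (1 lower), 0 to 6 with a library left out (0 to 1 higher, 0 to 5 lower), 1131 in 6 libraries (542 higher, 589 lower) and 913 at an unadjusted p under 0.05 (141 higher, 772 lower). Over all alternatives Kdr ran from 0.0037 to 0.49, Vegfc from 0.084 to 0.39, Nrp1 from -0.32 to -0.025, Nrp2 from -0.18 to -0.058 and Vegfb from -0.13 to -0.032. The cause was not tested. Deviations of same-numbered libraries correlated positively for replicates 1 (0.361) and 3 (0.393) and negatively for 2 (-0.109) and 4 (-0.290), so numbers were not taken as pairs. The replicate block gave 2 genes and 0 members. Depth is unknown, and members near 1 TPM limit what could be seen of Flt1, Angpt1 and Tek.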
